A study of Rattus norvegicus with 6 samples.

Results

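Il1b, Il6 and Ccl2, genes of secreted inflammatory mediators, were followed in the esophagus of rats with and without a mechanical injury. They were taken by their Ensembl identifiers, ENSRNOG00000004649 for Il1b, ENSRNOG00000010278 for Il6 and ENSRNOG00000007159 for Ccl2, and make up 3 of the 32623 genes counted. The study modelled esophageal stricture, the narrowing that follows scarring, and its title ties the model to inflammation. Full-thickness esophagus came from 6 wild-type male Sprague-Dawley rats, an outbred strain, aged 8 to 10 weeks. The 3 control rats were untreated, with no sham insertion named in the labels. In the 3 injured rats a 3D-printed device was passed through the mouth to about 9 to 10 cm and moved back and forth for 8 to 10 cycles of about 3 to 5 s. Tissue of both groups was collected on day 28, so the values describe a late time after the injury. Each library came from 1 animal.

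IL-1β, the product of Il1b, is made mainly by monocytes and macrophages as an inactive precursor, which the inflammasome protease caspase-1 cleaves before release. It acts through the IL-1 receptor and NF-κB to induce other mediators, among them IL-6 and CCL2. IL-6, the product of Il6, signals through its receptor, the shared chain encoded by Il6st and STAT3, and many stromal and immune cells can make it. CCL2, the product of Ccl2, is a chemokine that draws monocytes bearing CCR2 out of the blood into inflamed tissue, and fibroblasts, endothelium and macrophages all make it.

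Il1b and Ccl2 transcripts were higher in every injured animal than in every control, whereas Il6 was close to absent in both groups. Of all tested genes, 13.5% were likewise higher in every injured animal than in every control. Il1b was 6.66-fold higher and Ccl2 5.60-fold higher by the fitted change. Both passed the statistical test, but close to its limit and not in every setting. Il6 had 5 counts in all 6 libraries together, too few for a fold change.

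Libraries held 14181903 to 18376578 counts, and a floor of 3 counts, about the one-sided limit that a count of 0 allows, corresponds to 0.160 to 0.216 CPM, counts scaled to library sizes adjusted by the trimmed mean of M-values. Across the 14481 tested genes, injured libraries correlated with each other at a Spearman rho of 0.971 to 0.987 and control libraries at 0.936 to 0.972, where both lower values (0.936 and 0.964) involved control replicate 2. The 9 pairs of a control with an injured library correlated at 0.926 to 0.968, which overlaps the range among controls. The count file does not pair identifiers with symbols. The tissue was therefore not checked against marker genes, and the other genes of the IL-1, IL-6 and chemokine pathways are not described. Levels are compared between groups for 1 gene at a time, not between genes, because no transcript lengths were used.

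The DNA before the start of Il1b, the cytokine gene higher in every injured animal, and of Il6, the one near 0, is shown to set the regulatory letters beside these levels. Both stretches are the 250 bases before the RefSeq start on build GRCr8, whereas the counts were made on Rnor_6.0, and both are read 5′ to 3′ on the minus strand. Capitals mark matches to motifs of factors known to drive inflammatory genes, or to a TATA box. Il1b lies at chr3:137036582-137036831 and Il6 at chr4:5894576-5894825.
Il1b: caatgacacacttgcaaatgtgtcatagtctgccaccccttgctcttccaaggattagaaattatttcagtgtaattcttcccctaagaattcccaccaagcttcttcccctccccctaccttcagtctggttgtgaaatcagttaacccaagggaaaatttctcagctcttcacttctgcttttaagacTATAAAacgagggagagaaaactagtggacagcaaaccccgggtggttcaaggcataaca
Il6: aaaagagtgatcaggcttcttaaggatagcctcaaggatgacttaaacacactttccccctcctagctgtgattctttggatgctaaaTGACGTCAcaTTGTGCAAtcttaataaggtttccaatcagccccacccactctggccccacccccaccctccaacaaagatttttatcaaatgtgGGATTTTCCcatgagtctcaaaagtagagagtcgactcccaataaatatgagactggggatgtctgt

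The motifs searched on both strands were NF-κB (GGANTTTCC, where N is any base), the cAMP response element (TGACGTCA), C/EBP (TTGNGCAA), AP-1 (TGANTCA) and the TATA box (TATAAA). The Il6 stretch held 1 match each for the cAMP response element, from -162 to -155 relative to the start, for C/EBP, from -152 to -145, and for NF-κB, from -67 to -59, and these do not overlap. The Il1b stretch held 1 TATA box match, from -60 to -55, and no match to the other 4 motifs. Among 33469 rat promoters of the same length, 1.08% held the NF-κB letters, 1.59% the cAMP response element, 2.29% the C/EBP letters, 6.34% AP-1 and 12.9% the TATA box. These matches describe letters only, for 1 pattern per motif without mismatches. Other forms of the motifs and longer stretches were not searched. The promoter table gave a sequence for 2 of the 3 genes, and Ccl2 is named only.

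The first question was whether the cytokine Il1b differed in the injured esophagus. Control replicates 1, 2 and 3 held 8, 8 and 9 Il1b counts, against 44, 87 and 50 in the injured replicates of the same numbers. After scaling, the untreated rats stood at 0.480, 0.446 and 0.649 CPM, the injured rats at 2.34, 5.28 and 2.93 CPM. All 3 controls were low and close together, all 3 injured animals were higher, and injured replicate 2 was the highest. The lowest injured animal stood 3.61-fold above the highest control.

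Mean Il1b was 0.525 ± 0.108 CPM without and 3.52 ± 1.55 CPM with the injury (SD, 3 rats each). On the log2 scale the change was 2.74 ± 0.44 (SE), and Il1b passed the test (edgeR quasi-likelihood test, adjusted p = 0.0448 by Benjamini-Hochberg over all tested genes). The call was lost with limma-voom (adjusted p = 0.0816) and in all 6 fits that left out 1 library (edgeR, adjusted p from 0.0636 to 0.205). Of all tested genes, 0.711% were called higher in injured animals (103 genes) and 0.642% lower (93), or 129 and 67 genes with scaling by library size alone. Without injured replicate 3, edgeR called 2 genes higher and 0 lower, with 946 and 999 at an unadjusted p under 0.05. Every injured animal lay above every control in 13.5% of tested genes, and at least 2-fold above in 1.15%. In bulk tissue, more cells that carry a transcript and more transcript per cell cannot be told apart.

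The summed counts were 25 in controls and 181 in injured animals, a ratio of 6.70 after scaling to library size (exact Clopper-Pearson 95% interval 4.40 to 10.6, counting error only). The exact Poisson 95% interval of the lowest injured animal began at 1.70 CPM, above the upper end of the highest control at 1.23 CPM. Among injured animals the interval of replicate 2 (4.23 to 6.51 CPM) lay apart from those of replicates 1 (1.70 to 3.14) and 3 (2.17 to 3.86). The 3 control intervals overlapped, but 8 or 9 counts could hardly have separated them. PCR copies are not separate molecules, so the true intervals may be wider.

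Il6, the second cytokine, was barely detected. Control replicates 1, 2 and 3 held 0, 0 and 1 counts, the injured replicates 2, 1 and 1. All 6 libraries were under the floor of 3 counts, the groups overlapped once scaled to library size, and no fold change is given. In the control library with a count, Il6 stood at 0.0721 CPM, above injured replicates 2 and 3 at 0.0607 and 0.0585 CPM. Summed over each group, untreated rats had 0.0206 CPM of Il6 (exact Poisson 95% interval 0.000522 to 0.115) and injured rats 0.0764 CPM (0.0208 to 0.196). The intervals overlap over most of their length.

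Il6 did not reach the minimum count for the test. In a fit without that filter it was not called (edgeR, unadjusted p = 0.329, adjusted p = 0.624), and an exact two-sided permutation test over the 6 libraries gave p = 0.3, where 0.1 is the smallest p that 3 against 3 animals allow. A difference in Il6 was not detectable at this depth, which does not show that there was none. Of the genes counted, 2473 (7.58%) had between 1 and 5 counts in total.

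Ccl2, the monocyte chemokine, had the most counts of the 3 genes and so the smallest counting error. Control replicates 1, 2 and 3 held 42, 26 and 25 Ccl2 counts and the injured replicates 110, 258 and 187. After scaling, the untreated rats stood at 2.52, 1.45 and 1.80 CPM, the injured rats at 5.86, 15.7 and 10.9 CPM. Control replicate 1 was the highest control and injured replicate 1 the lowest injured animal, which still stood 2.33-fold above it.

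Mean Ccl2 was 1.92 ± 0.54 CPM without and 10.8 ± 4.9 CPM with the injury (SD, 3 rats each). On the log2 scale the change was 2.49 ± 0.42 (SE), and Ccl2 passed the test (edgeR quasi-likelihood test, adjusted p = 0.0495), by a small margin. Its call was lost with limma-voom (adjusted p = 0.1004), and when replicate 2 or 3 of either group was left out (edgeR, adjusted p from 0.0927 to 0.223). The summed counts of 93 and 555 gave a scaled ratio of 5.53 (exact Clopper-Pearson 95% interval 4.43 to 6.96). Counting intervals of the 3 injured animals did not overlap one another, at 4.81 to 7.06, 9.43 to 12.6 and 13.8 to 17.7 CPM for replicates 1, 3 and 2. These intervals cover counting error only. For both Il1b and Ccl2 an exact two-sided permutation test over the 6 libraries gave p = 0.1, the smallest possible.

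**Figure D1:**
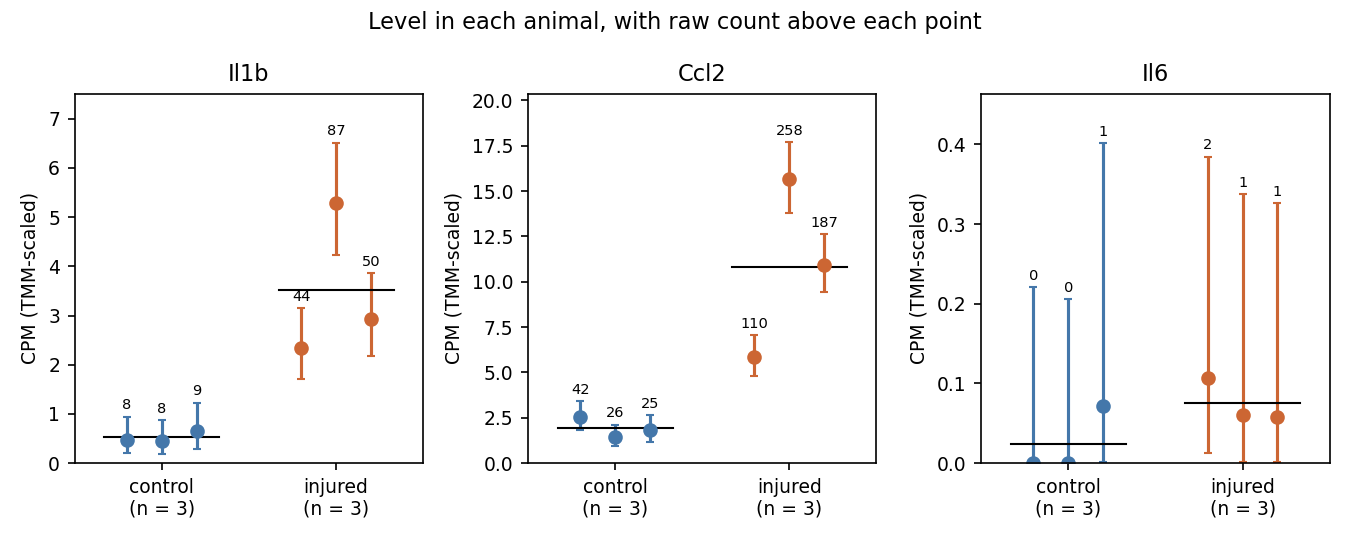
Level of Il1b, Ccl2 and Il6 in CPM in each animal, with the raw count above each point, exact Poisson 95% intervals as bars and group means as black lines. Injured animals sit at 2.34 to 5.28 CPM for Il1b and 5.86 to 15.7 CPM for Ccl2, above all controls, while Il6 stays at 0 to 2 counts in every library.

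Il1b and Ccl2 ordered the injured animals alike, with replicate 2 highest, then replicate 3, then replicate 1. In controls the order differed: Il1b was highest in replicate 3 and Ccl2 in replicate 1. The number of Ccl2 counts per Il1b count in the same library does not depend on library scaling. Control replicates 1, 2 and 3 had ratios of 5.25, 3.25 and 2.78, and the injured replicates 2.50, 2.97 and 3.74. These ranges overlap.

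The mean ratio was 3.76 ± 1.31 without and 3.07 ± 0.63 with the injury (SD, 3 rats each), and a difference was not detected (exact two-sided permutation test of the log2 ratio, p = 0.6). From summed counts the ratio was 3.72 in controls (exact Clopper-Pearson 95% interval 2.37 to 6.04) and 3.07 in injured animals (2.59 to 3.65). The control interval spans a wide range because only 25 Il1b counts lie behind it, so unequal changes of the 2 genes within that range could not have been seen.

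Replicate numbers were shared between the groups, although no label pairs the animals. In pairs of same-numbered libraries, deviations from the group means correlated across genes at 0.37 for number 1, 0.37 for number 2 and 0.10 for number 3. Within these pairs Il1b was 4.88-fold higher in the injured library for number 1 (exact Clopper-Pearson 95% interval 2.27 to 12.0), 11.8-fold for number 2 (5.74 to 28.3) and 4.51-fold for number 3 (2.20 to 10.4). Ccl2 was 2.33-fold higher for number 1 (1.62 to 3.40), 10.8-fold for number 2 (7.20 to 16.8) and 6.07-fold for number 3 (3.99 to 9.63). All 6 ratios were above 1, which any pairing must give because the groups did not overlap in either gene. Pair 2 had the largest ratio for both genes. With the replicate number as a block, Il1b kept its call (edgeR, adjusted p = 0.0459), while Ccl2 did not, its log2 change being 2.40 (edgeR, adjusted p = 0.0585). In that fit 1.98% of tested genes were called higher.

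**Figure D2:**
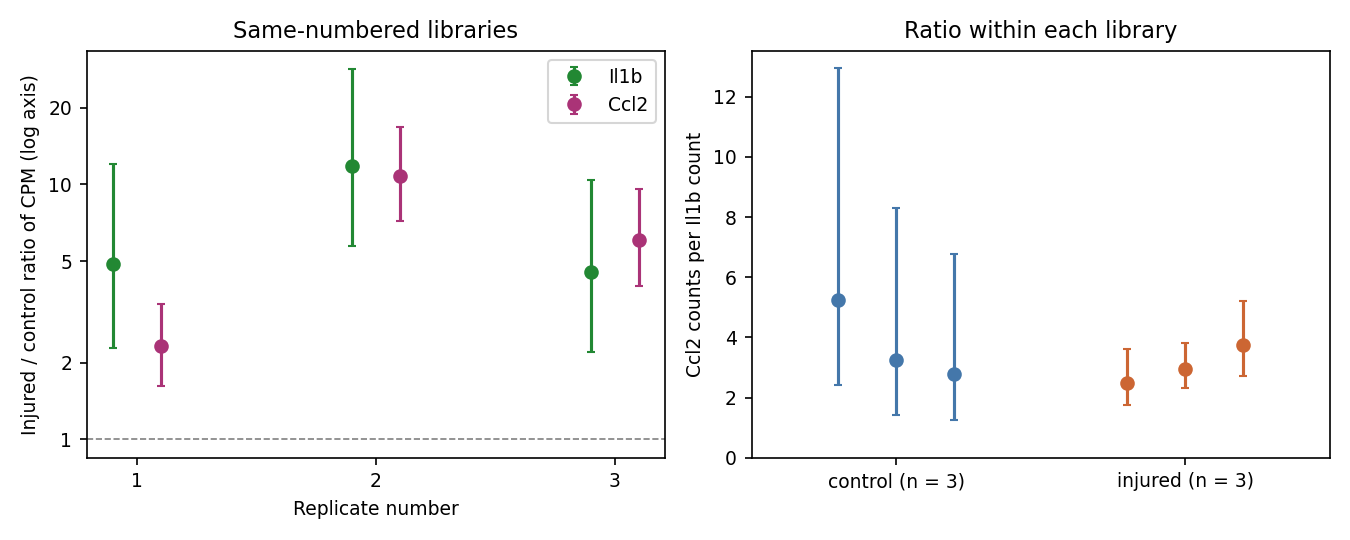
Left, ratio of injured to control CPM in same-numbered libraries on a log axis for Il1b and Ccl2. Right, Ccl2 counts per Il1b count within each library of the control and injured groups, with exact 95% counting intervals as bars in both panels. Ratios on the left run from 2.33 to 11.8, all above 1, as any pairing must give when groups do not overlap. The ratios on the right overlap between groups.

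Among all tested genes, 0.739% had a higher log2 fold change than Il1b and 0.953% a higher one than Ccl2. By fold change Il1b ranked 34 and Ccl2 37 among the 103 genes called higher. Ranked by p over the 196 called genes, Il1b stood at 159 and Ccl2 at 191, close to the limit. The fold changes of both genes exceeded the median of the genes called higher, a log2 value of 1.93, and their standard errors of 0.44 and 0.42 exceeded the median of those genes, 0.24. A gene with a larger standard error needs a larger fold change to be called. The comparison with the median and the ranks by fold change are therefore partly set by the call. The biological coefficient of variation was 0.356 for Il1b and 0.358 for Ccl2, against a trend at their abundance of 0.400 and 0.316.

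**Figure D3:**
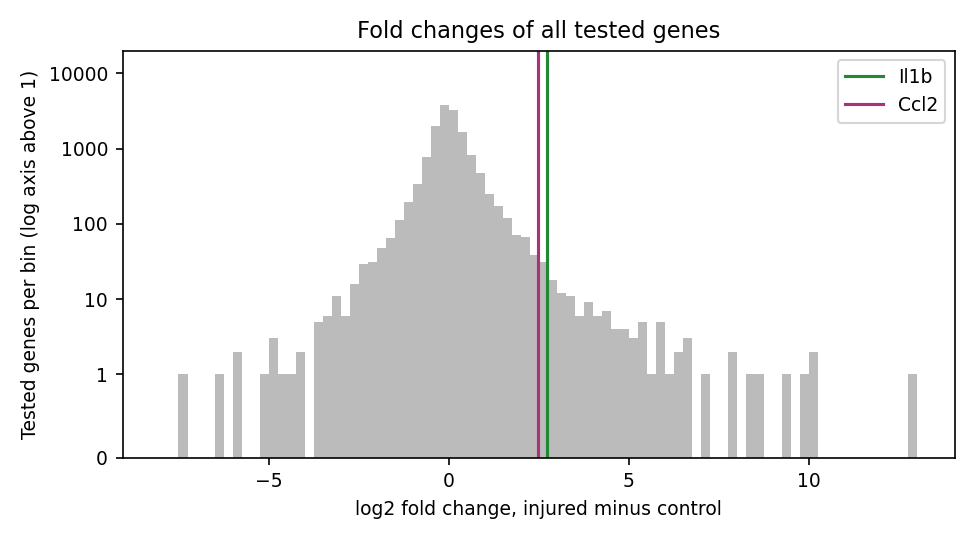
Number of tested genes per bin of log2 fold change (injured minus control), with a log vertical axis above 1 and lines at Il1b and Ccl2. The lines at 2.74 and 2.49 lie in the upper tail, with 0.739% and 0.953% of tested genes beyond them.

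Both calls lay close to the threshold and depended on the setting. Il1b was higher in injured animals under all 17 alternatives that tested it, with log2 fold changes of 2.32 to 2.96, and was called in 10. Ccl2 was higher under all 17 as well, with log2 fold changes of 2.12 to 2.78, and was also called in 10. For both genes these include a prior count of 2, which alters the fold change but not the p. That setting could not have ended a call. Upper quartile scaling and the replicate block also ended the call of Ccl2. Without control replicate 2, the library with the lower correlations, the log2 fold change was 2.63 for Il1b and 2.31 for Ccl2 (edgeR, adjusted p = 0.0908 and 0.0927). Without injured replicate 2, the highest animal for both genes, it was 2.32 and 2.12 (edgeR, adjusted p = 0.141 and 0.147). The groups did not overlap in either gene, which leaves little room for a change of direction when a library is dropped.

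DESeq2, which called 4.7% of the genes with an adjusted p higher in injured animals, called both genes, with an adjusted p of 3.81e-05 for Il1b and 2.06e-06 for Ccl2. With the replicate block DESeq2 called 5.91% higher, both genes among them. Limma-voom, which called 0.38% of tested genes higher, called neither, with log2 fold changes of 2.60 and 2.38. The size of the difference was thus nearly the same between tools, and the adjusted p was not.

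**Figure D4:**
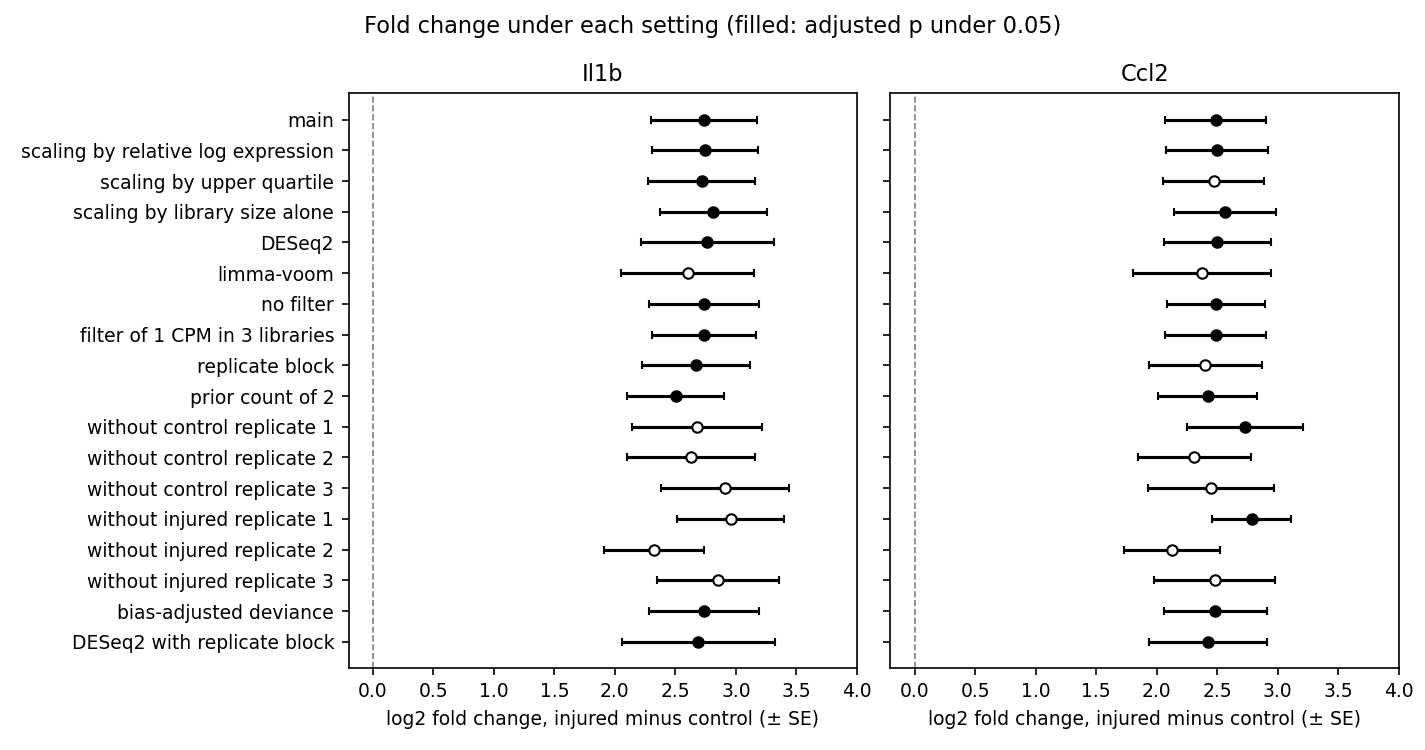
Log2 fold change (injured minus control) ± standard error of Il1b and Ccl2 under each setting, with filled points where the adjusted p was under 0.05. All points lie between 2.12 and 2.96, and most open points belong to fits with 1 library left out.

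As a description of likeness, each of the 2 genes was compared with the 13657 other tested genes that averaged 1 CPM or more, by Pearson correlation of log2(CPM + 0.5) over the 6 libraries. ENSRNOG00000028638, for which the files give no symbol, followed Il1b most closely (r = 0.997), at 12.5, 13.2 and 13.8 CPM in untreated rats and 21.9, 29.3 and 23.9 CPM after injury. ENSRNOG00000033844 followed Ccl2 most closely (r = 0.997), at 14.8, 13.1 and 13.8 CPM in untreated rats and 18.6, 26.5 and 22.3 CPM after injury. Both changed far less than the gene they followed, with log2 fold changes of 0.93 (edgeR, adjusted p = 0.0448) and 0.69 (edgeR, adjusted p = 0.0862, not called). Il1b and Ccl2 correlated with each other at r = 0.974, which was place 75 among the genes nearest to Il1b and place 62 among those nearest to Ccl2. A correlation of at least 0.95 was reached by 254 genes (1.86% of those compared) for Il1b and 178 (1.30%) for Ccl2. Each nearest gene was picked as the highest r of 13657 over 6 libraries, so its r of 0.997 carries no weight by itself. The 6 libraries come from 2 groups that do not overlap in either gene, so these correlations include the difference between groups.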

How the data were processed

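Polyadenylated RNA of 6 rat esophagi was sequenced as paired-end reads. The values deposited by the authors are raw whole-number counts for each gene, 1 column per animal. Per the submitters' processing notes, the build was Rnor_6.0 and the tools were HISAT2 2.2.1 and HTSeq 0.6.1, beside bcl2fastq 2.20.0.422, DESeq2 1.50.2 and fastp 0.24.1. How each was used, the annotation, strand handling and multi-mapped reads (which could matter for the CC chemokine family of Ccl2) are not given in the sources cited.

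Counts were filtered with filterByExpr (minimum count 10, minimum total 15), scaled by TMM and tested with edgeR 4.0.16 (quasi-likelihood, group as the only term, R 4.3.3), at a Benjamini-Hochberg adjusted p under 0.05. Standard errors were derived from the log2 fold change and the F statistic (|log2 fold change| over √F). Il1b and Ccl2 passed the filter, Il6 did not. Permutation tests used log2(CPM + 0.5). DESeq2 1.42.0, limma-voom 3.58.1, other scalings and filters, fits without 1 library and a replicate block were alternatives. Scripts were tested on simulated data. Deviations of same-numbered libraries from their group means correlated across genes at 0.37, 0.37 and 0.10. Differently numbered libraries were not compared in this way, and no label pairs the animals. A pairing by number was therefore used only in the replicate block and the ratios of same-numbered libraries, not in the main fit. The 3 genes, the tests and the motifs were chosen with earlier results of these data known. In full were described the 3 genes and, for likeness, the gene nearest to each. The 4 pathway lists (62 symbols) and the cell type markers could not be applied, since the reference table (GRCr8) pairs 0 Ensembl identifiers with symbols. All 3 symbols were found in it, and 2 in the promoter table. Libraries were described by the labels as biological replicates.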

Additional observations from a re-analysis of the deposited data

How the results depend on the processing

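No result changed direction. With limma-voom the log2 fold change was 2.60 for Il1b and 2.38 for Ccl2, and neither was called. Ccl2 also lost its call with upper quartile scaling (2.47; edgeR, adjusted p = 0.0502) and with the replicate block (2.40). Leaving out 1 library gave 2.32 to 2.96 for Il1b, called in 0 of 6 fits, and 2.12 to 2.78 for Ccl2, called in 2 of 6, without control replicate 1 or injured replicate 1 (edgeR, adjusted p = 0.0492 and 0.0490). Il6 was not called in any of its 11 alternatives. It was removed by the filter with limma-voom, the 1 CPM filter and the bias-adjusted fit, and DESeq2 gave it no adjusted p.

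Of all tested genes, 103 were called higher and 93 lower. DESeq2 called 756 higher and 641 lower, and limma-voom 55 higher. With the replicate block, edgeR called 287 genes higher and 259 lower, DESeq2 953 and 628. Leaving out 1 library gave 2 to 134 higher and 0 to 200 lower (edgeR), both lowest without injured replicate 3, where 946 genes were higher and 999 lower at an unadjusted p under 0.05. Without control replicate 1, edgeR called 134 genes higher and 200 lower, more than the main fit. Every other fit without 1 library called fewer in both directions. All fits without 1 library have fewer animals, and the cause of these and the other shifts was not tested. DESeq2 with the block and the bias-adjusted edgeR fit were added after the main result was seen. Scaling moved the median log2 fold change of all tested genes by less than 0.1. Il1b had 8 or 9 counts per control library, and Il6 is limited by depth in all libraries.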
